A study of Mus musculus with 2 samples.

Results

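The 35 genes described here serve the presentation of antigen on major histocompatibility complex (MHC) molecules. They are the 25 genes in the table whose symbol starts with H2-, the mouse MHC, together with Cd74, Ciita, B2m, Tap1, Tap2, Tapbp, Psmb8, Psmb9, Psmb10 and Nlrc5, out of 19169 genes measured. Of the 35, 30 lie on chromosome 17, where the mouse MHC is, and 31 had 50 or more unique molecular identifiers (UMIs, each a counted RNA molecule) over all cells. The other 4 were H2-Q1, H2-Q2, H2-M5 and H2-M9, with 4 to 27 UMIs in either library. H2-Ke6 was taken by its symbol but encodes a steroid dehydrogenase, and over all cells it was at 21.4 CPM in the WT library and 22.2 in the KO library (CPM, UMIs scaled to a common total in each group of cells).

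Class I molecules (H2-K1, H2-D1) pair with B2m and show peptides from inside the cell to CD8+ T cells and NK cells. The peptides are cut by the immunoproteasome (Psmb8, Psmb9, Psmb10), carried into the endoplasmic reticulum by Tap1 and Tap2 and loaded with the help of Tapbp. Class II molecules (H2-Aa, H2-Ab1, H2-Eb1) are made by professional antigen-presenting cells and show peptides taken up from outside to CD4+ T cells. Cd74 is the invariant chain that guards their groove, H2-DM exchanges its remnant for peptide and H2-O restrains H2-DM. Ciita and Nlrc5 are the transactivators of class II and class I, and interferons raise both sets.

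Gastrocnemius muscle was taken 14 days after injury by cardiotoxin (CTX) from WT and Gsdme-KO mice, male per the study's methods, which give C57BL/6J as the WT strain and state no age. There was 1 library for each genotype. The methods give 5 mice per group without saying whether their cells were pooled, so no difference between genotypes has a replicate check and no p-value is given. All intervals are 95% exact intervals (Poisson for levels, binomial for ratios and shares) and cover counting error only. A ratio is the log2 of the level in the KO library over that in the WT library, and paired values are given in the order WT, KO, each library being called by its label. A gene counts as past the fold at 1.5-fold with 50 or more UMIs over both libraries. WT had 6354 cells with 44758518 UMIs and KO had 7078 cells with 50930009 UMIs, at medians of 5740 and 5962.5 UMIs per cell, and 4 barcodes occurred in both. Gsdme itself had 225 and 237 UMIs (log2 ratio, -0.11; interval, -0.38 to 0.16), so the direction of every ratio rests on the labels. Cells were clustered without the 35 genes and named by markers. A group of 117 and 149 cells with Lyz1, Ear2 and Retnla among its leading genes was given no cell type name and is called the Lyz1 group. Groups named from markers carry "-like". The pericyte-like cells (median, 12650 UMIs per cell) scored 2.67 for pericyte markers and 1.71 for endothelial markers. The part of endothelial RNA in their values was not tested.

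The promoters below show which matches to 4 short motifs the class I and class II genes shared or did not share. They are from RefSeq (GRCm38.p6), run from 200 bases before to 10 bases after the start site in the direction of transcription, and carry 4 motifs in capitals, on either strand: GATTGG (the CCAAT core), TGACG (a cAMP response core), GGGGATTC (part of a kappaB site) and the interferon-stimulated response element core. The class II genes come first. The 2 hits of TGACG in H2-Aa overlap on opposite strands.
H2-Aa (chr17:34287814-34288023, minus strand): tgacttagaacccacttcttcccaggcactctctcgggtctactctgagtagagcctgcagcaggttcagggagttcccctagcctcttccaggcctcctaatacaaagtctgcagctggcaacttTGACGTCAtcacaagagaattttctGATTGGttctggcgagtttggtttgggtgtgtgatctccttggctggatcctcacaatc
H2-Eb1 (chr17:34305667-34305876, plus strand): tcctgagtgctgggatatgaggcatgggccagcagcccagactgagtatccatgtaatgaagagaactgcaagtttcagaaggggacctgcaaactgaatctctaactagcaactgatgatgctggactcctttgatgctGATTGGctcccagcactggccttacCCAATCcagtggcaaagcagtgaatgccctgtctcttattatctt
H2-DMb1 (chr17:34152991-34153200, plus strand): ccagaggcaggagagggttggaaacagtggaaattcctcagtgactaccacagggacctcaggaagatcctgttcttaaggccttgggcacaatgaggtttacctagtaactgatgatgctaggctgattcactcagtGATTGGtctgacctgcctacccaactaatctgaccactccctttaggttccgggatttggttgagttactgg
H2-K1 (chr17:34000324-34000533, minus strand): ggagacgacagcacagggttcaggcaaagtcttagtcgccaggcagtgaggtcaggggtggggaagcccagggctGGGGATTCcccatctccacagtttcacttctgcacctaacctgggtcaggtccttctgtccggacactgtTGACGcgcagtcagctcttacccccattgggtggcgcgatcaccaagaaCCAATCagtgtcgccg
H2-D1 (chr17:35262894-35263103, plus strand): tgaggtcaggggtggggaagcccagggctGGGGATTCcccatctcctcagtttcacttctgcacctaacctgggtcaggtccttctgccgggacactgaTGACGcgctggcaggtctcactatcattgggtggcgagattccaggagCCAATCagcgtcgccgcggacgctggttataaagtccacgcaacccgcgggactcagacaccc
H2-T23 (chr17:36032692-36032901, minus strand): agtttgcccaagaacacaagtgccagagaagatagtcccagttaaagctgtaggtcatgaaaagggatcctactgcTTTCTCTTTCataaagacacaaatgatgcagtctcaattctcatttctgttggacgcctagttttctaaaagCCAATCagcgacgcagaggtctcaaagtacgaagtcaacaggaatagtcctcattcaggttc
B2m (chr2:122147487-122147696, plus strand): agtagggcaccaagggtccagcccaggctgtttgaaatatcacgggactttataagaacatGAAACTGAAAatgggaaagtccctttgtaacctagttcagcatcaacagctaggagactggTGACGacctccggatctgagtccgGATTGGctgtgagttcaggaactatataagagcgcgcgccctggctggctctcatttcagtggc

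Promoters of 28 members (31 promoters) were read, with Cd74 left out. A member counted if any of its promoters held the motif. The CCAAT core was in those of 19 members and in 13.3% of all 32851 promoters of this length. In H2-Aa, H2-Eb1, H2-DMb1 and B2m it was on the sense strand, beginning at bases -49, -60, -62 and -54, and H2-Eb1 had another in the opposite orientation at -35. In H2-D1, H2-T23 and H2-K1 it was in the opposite orientation alone, at -53, -52 and -6. H2-K1 had 2 listed start sites, and only the window of the printed start held the CCAAT core. The part of a kappaB site was in 5 members, all class I (H2-K1, H2-D1, H2-Q6, H2-Q7 and H2-T22), and in 0.493% of all promoters. The interferon element was searched as a fixed pattern, which was in B2m, H2-T23 and H2-T22 and in 2.36% of all promoters. Variants of this pattern were not searched. The lack of a match, as in H2-K1 and H2-D1, therefore does not show that a promoter lacks an interferon element. These matches describe the letters and no binding was measured.

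Class II was highest in 4 groups of leukocytes. The sum of H2-Aa, H2-Ab1 and H2-Eb1 was 33091 and 36283 CPM in dendritic cell (DC)-like cells. It was 22624 and 23783 CPM in the Lyz1 group, 19301 and 22926 in macrophage-like cells and 10242 and 9932 in B cell-like cells. Neutrophil-like cells had 6278 and 1888 CPM, nearly all of it in 5 cells of each library. Outside the leukocytes the same sum was between 37.7 CPM (lymphatic endothelial-like, KO) and 388 CPM (mature muscle-like, WT). Cd74 was at 26402 and 25370 CPM in DC-like cells and at 16539 and 18463 in macrophage-like cells, and over 18 cell types in each library its log level had a Pearson r of 0.992 with class II, given as a description of 36 points that share libraries and clusters. Of 12034 genes outside the members, those with the most similar pattern to class II were Cd83 (r, 0.948), Ncf1 (0.938), Ctss (0.928), Cd86 (0.919) and Ly86 (0.912).

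**Figure D1:**
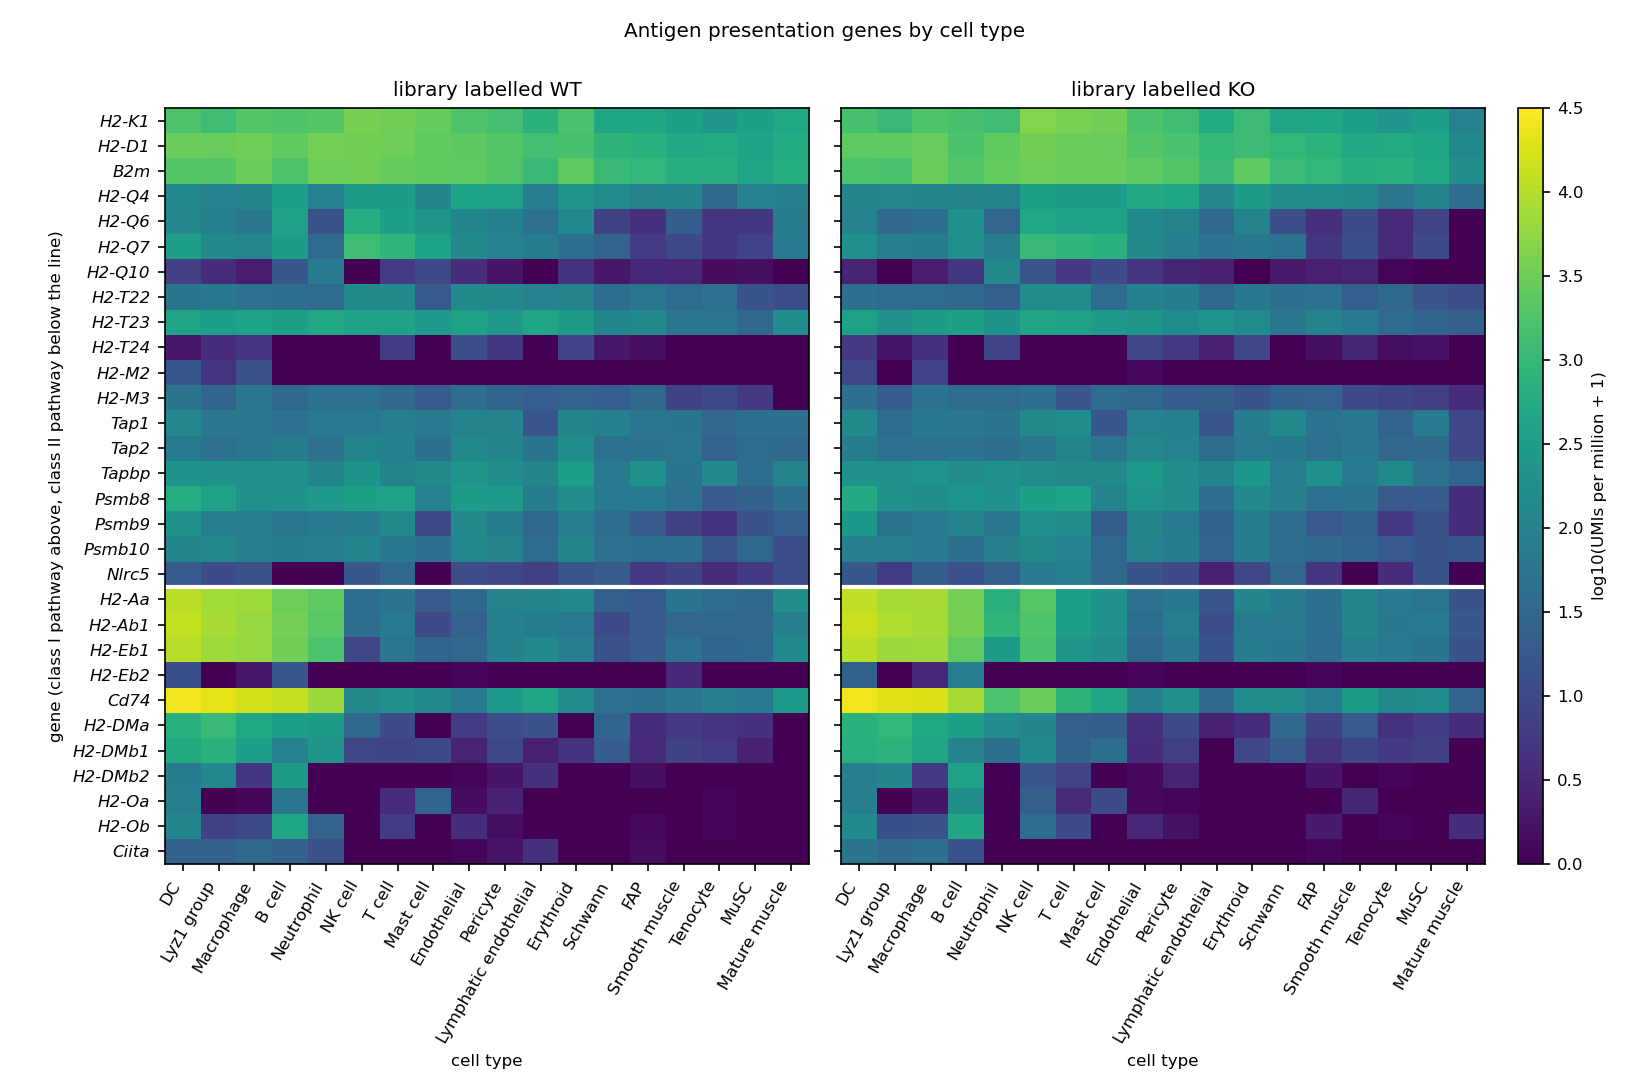
Level of 30 members (rows) in 18 groups of cells (columns) in each library, as log10 of CPM plus 1. The class II genes and Cd74 are bright in DC-like cells, the Lyz1 group, macrophage-like and B cell-like cells, while H2-K1, H2-D1 and B2m are bright in nearly all columns.

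Within the DC-like cells, class II was highest in those with the markers of conventional type 2 DCs, at 41367 CPM in WT and 43534 in KO (61 and 67 cells). Type 1-like DCs (34 and 37 cells) had 31413 and 33628 CPM. Mature DC-like cells, led by Ccl5, Ccl22 and Il12b, differed from these. They had the highest class I of the myeloid clusters (10375 and 7851 CPM) and the highest Psmb8 (1998 and 1157 CPM), and their class II was 7596 CPM in WT and 18881 in KO. They numbered 8 and 7 cells, so their levels rest on very few cells.

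The genes around the class II molecule divided the antigen-presenting cells further. H2-DMa and H2-DMb1, the classical exchange factor, were highest in the Lyz1 group, at 1081 and 958 CPM and at 778 and 826 CPM in WT and KO. In macrophage-like cells they were at 474 and 495 CPM and at 317 and 422 CPM. H2-DMb2, the second beta chain, was at 308 and 374 CPM in B cell-like cells, 127 and 113 in the Lyz1 group and 79.7 and 83.1 in DC-like cells, but at 4.24 and 4.86 in macrophage-like cells. H2-DMb1 and H2-DMb2 share part of their sequence: 15.9% of the 90-base words of H2-DMb1 transcripts also occur in H2-DMb2, so some reads may be split between them. H2-Ob was at 462 and 457 CPM in B cell-like cells, at 110 and 129 in DC-like cells and at 8.91 and 12.3 in macrophage-like cells. H2-Eb2, a second class II beta chain, was at 16.2 and 83.0 CPM in B cell-like cells, from 2 and 20 UMIs. H2-Oa was at 81.8 and 86.7 CPM in DC-like cells and at 56.8 and 166 in B cell-like cells, from 7 and 40 UMIs in the latter. Ciita was at 22.8 and 53.9 CPM in DC-like cells, 32.0 and 42.1 in macrophage-like cells, 23.3 and 33.7 in the Lyz1 group and 24.3 and 12.5 in B cell-like cells, the last from 3 UMIs in each library. H2-M2, a class I-like gene, was read mainly in Trem2 macrophage-like cells (69.9 and 23.6 CPM) and in mature DC-like cells (212 and 105 CPM). These levels rest on few cells: 11 of 848 and 11 of 1028 macrophage-like cells and 4 and 2 DC-like cells had an H2-M2 UMI.

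Class I was read in every cell type. The sum of H2-K1 and H2-D1 was highest in NK cell-like cells, at 7266 CPM in WT and 8167 in KO, and in T cell-like cells, at 6576 and 6972. Macrophage-like cells had 5114 and 4681 CPM and endothelial-like cells 4058 and 3554. Fibro-adipogenic progenitor (FAP)-like cells, the mesenchymal cells of muscle, had 1219 and 1274 CPM. The lowest of the larger groups were tenocyte-like cells, at 801 and 795, and muscle stem cell (MuSC)-like cells, at 770 and 799. Mature muscle-like cells had 1064 CPM in 32 cells and 222 in 63 cells. B2m followed class I over the same 36 points (r, 0.961), as did H2-T23 (0.904) and H2-Q7 (0.878). The closest genes outside the members were Arpc3 (0.911), Srgn (0.903), Inpp5d (0.895), Neurl3 (0.886) and Tes (0.880).

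The genes that cut and load class I peptides were also read in every cell type. Psmb8 was highest in DC-like cells, at 611 and 526 CPM, and was at 18.8 and 16.8 in tenocyte-like cells. Psmb9 was at 199 and 254 CPM in DC-like, 131 and 170 in T cell-like and 18.7 and 16.9 in FAP-like cells, and Psmb10 at 128 and 101 in endothelial-like and 43.0 and 35.6 in FAP-like cells. For the peptide transporter, Tap1 was at 121 and 136 CPM in DC-like and 56.9 and 50.5 in FAP-like cells, and Tap2 at 132 and 118 in endothelial-like and 50.8 and 47.5 in FAP-like cells. Tapbp was at 235 and 267 CPM in endothelial-like, 205 and 217 in macrophage-like and 200.3 and 205 in FAP-like cells, but at 42.0 and 46.6 in MuSC-like cells. Nlrc5 was at 30.8 and 85.1 CPM in T cell-like cells, from 12 and 35 UMIs, and at 12.1 and 20.1 in macrophage-like cells.

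The nonclassical class I genes differed in pattern. H2-Q7 was at 1242 and 1073 CPM in NK cell-like cells and at 928 and 922 in T cell-like cells, against 4.98 and 4.38 in FAP-like cells. H2-Q6 went with it, at 641 and 507 CPM in NK cell-like cells and 3.22 and 3.25 in FAP-like cells. Of the 90-base words of H2-Q7 transcripts, 10.0% also occur in H2-Q6, so their separate values are uncertain. H2-Q4 was highest in endothelial-like cells (403 and 511 CPM) and in pericyte-like cells (371 and 464 CPM). In NK cell-like cells it was at 309 and 343 CPM. H2-T23, whose product presents class I leader peptides to NK receptors, was read more broadly. It was at 435 and 221 CPM in lymphatic endothelial-like, 390 and 432 in NK cell-like and 31.8 and 27.4 in MuSC-like cells. H2-Q10 was highest in neutrophil-like cells, at 73.7 and 141 CPM from 6 and 19 UMIs. H2-K1 and H2-D1 share few words (2 of the 2222 of H2-K1).

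The comparison of genotypes asks whether loss of Gsdme goes with a change in these genes in any cell type. Macrophage-like cells as a whole had a class II ratio of 0.25 (0.24 to 0.26). There 1 of 26 members was past the fold upward (Nlrc5) and 1 downward (H2-M2), beside 4.92% and 7.13% of all genes. H2-M2 was read in 11 macrophage-like cells of each library. They were divided by the markers of Lyve1+ tissue-resident macrophages into a Lyve1-high cluster (305 and 353 cells) and the rest (543 and 675 cells). This division was made after the data had been seen, with the members left out of the clustering.

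In Lyve1-high macrophage-like cells class II was at 6691 CPM in WT and 12068 in KO (log2 ratio, 0.85; 0.81 to 0.89). H2-Aa was at 2530 and 4603 CPM, H2-Ab1 at 2150 and 4033 and H2-Eb1 at 2011 and 3433, all 3 higher in KO. Cd74 was at 6560 and 11037 CPM (0.75; 0.71 to 0.79) and H2-DMb1 at 126 and 210 CPM (0.74; 0.44 to 1.05). H2-DMa was at 248 and 332 CPM (0.42). Ciita had 26 and 32 UMIs in these cells, a ratio of 0.14 with an interval from -0.66 to 0.94, too few to say whether it differed. Of 22 members with enough UMIs, 5 were past the fold upward, all of the class II pathway (H2-Aa, H2-Ab1, H2-Eb1, Cd74 and H2-DMb1), beside 6.49% of all genes. Psmb9 alone was past it downward (109 and 71.9 CPM), beside 8.92%. Class I was at 4419 and 4188 CPM there (-0.08; -0.13 to -0.02).

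The other macrophage-like cells had class II at 23163 and 25892 CPM (0.16; 0.15 to 0.17), with Cd74 at 19595 and 20492. Finer clusters differed among themselves. The 2 clusters with Lyve1 macrophage markers had 5731 and 10402 CPM, and 8151 and 14728 CPM, with ratios of 0.86 and 0.85. The cluster led by Ccl3, Il10 and Cxcl1 had 28563 and 31830 CPM (0.16), and Trem2 macrophage-like cells, led by Gpnmb, had 24580 and 30058 (0.29). A small cluster led by Ifit3 and Cxcl9 (27 and 30 cells) had 14896 and 23114 CPM (0.63). A shallow cluster led by hemoglobin genes (150 and 194 cells) had 12439 and 16851 CPM (0.44).

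**Figure D2:**
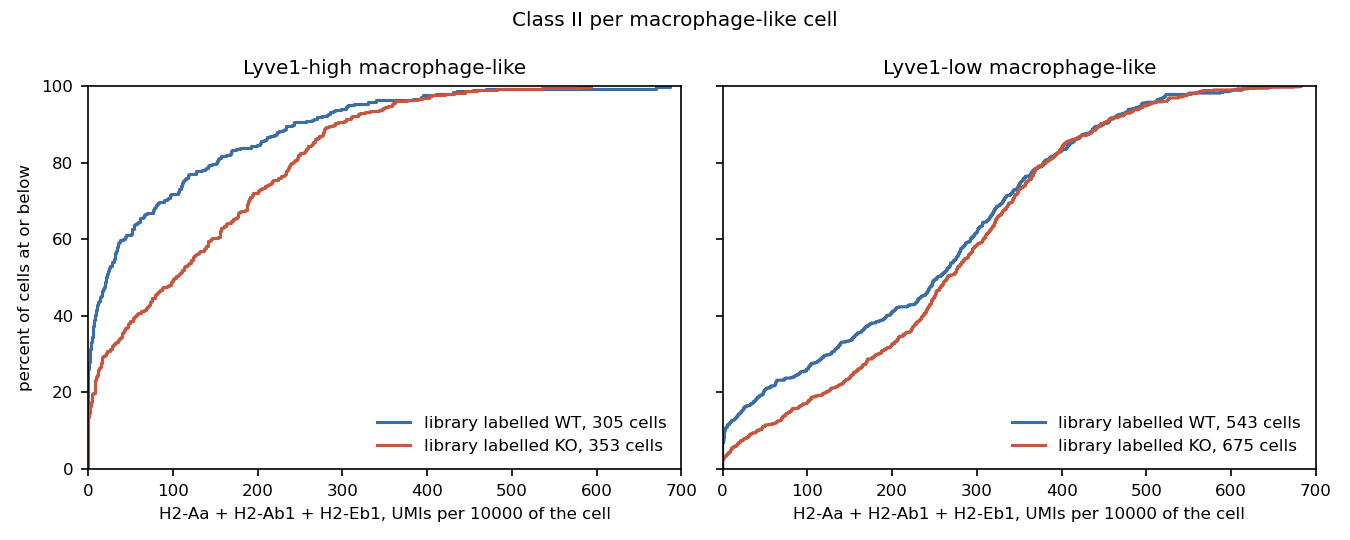
Cumulative share of macrophage-like cells (y axis, percent) at or below each class II level (x axis, UMIs of H2-Aa, H2-Ab1 and H2-Eb1 per 10000 UMIs of the cell), by library. Among Lyve1-high cells the KO curve lies to the right of the WT curve, with medians of 104 and 21.4, and among the other macrophage-like cells the curves differ chiefly at the low end.

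Per cell, the median class II level in Lyve1-high cells was 21.4 UMIs per 10000 in WT and 104 in KO. Cells under 50 per 10000 were 61.0% (55.3 to 66.5) of Lyve1-high cells in WT and 38.5% (33.4 to 43.8) in KO. At the 90th percentile the levels were 242 and 291, closer than the medians. In the other macrophage-like cells the medians were 253 and 265 and the cells under 50 per 10000 were 20.8% and 11.3%. After each cell was thinned to 1000 UMIs, 81.4% (78.4 to 84.1) of all macrophage-like cells in WT and 91.6% (89.7 to 93.3) in KO had a class II UMI. The unthinned shares were 86.2% and 93.7%. Lyve1-high cells were shallower, with median depths of 3031 and 2738 UMIs.

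Several resident macrophage markers were lower in KO in Lyve1-high cells. Lyve1 was at 515 and 298 CPM (-0.79), Timd4 at 148 and 58.2 (-1.34), Cd163 at 563 and 407 (-0.47) and Folr2 at 1559 and 1258 (-0.31). F13a1, a leading gene of this cluster, was nearly level, at 1870 and 1746 CPM (-0.10). Ccr2, a receptor of monocyte-derived cells, was at 99.6 and 194 CPM (0.96), and Cd83, a co-stimulatory and maturation gene, at 483 and 909 (0.91). In the other macrophage-like cells, where class II differed by 0.16, Timd4 had a ratio of -2.04, Lyve1 -0.89, Cd163 -0.47, Ccr2 0.41 and Cd83 0.79. Folr2 was at 0.22 and F13a1 at 0.28 there. A different mix of cells within the cluster and a different level of class II per cell cannot be told apart in these sums. Among macrophage-like cells as a whole, 3 of 4 co-stimulation genes (Cd80, Cd40 and Cd83) were past the fold upward, beside 4.92% of all genes, and Cd86 was at 187 and 193 CPM. Irf1, which acts downstream of interferon gamma, was lower in KO in Lyve1-high cells (410 and 271 CPM). In the other macrophage-like cells Irf1 was nearly level, at 148 and 145 CPM (-0.03).

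The other professional antigen-presenting cells, each taken as a whole, differed by less than 1.5-fold in class II. The ratio was 0.13 (0.11 to 0.15) in DC-like cells, where Ciita alone of 26 members was past the fold upward (1.24) and H2-Q7 alone downward, beside 9.15% and 8.41% of all genes. In the Lyz1 group it was 0.07, with Cd74 at -0.07. In B cell-like cells it was -0.04 (-0.14 to 0.06), while Cd74 was at 12529 and 8267 CPM (-0.60). Immunoglobulin RNA (Igkc and Ighm) was at 15050 and 173008 CPM in these B cell-like cells, and its part in the lower Cd74 was not tested. The Lyz1 group differed in the class I pathway instead. There 9 of 24 members were past the fold downward and 0 upward, beside 9.38% and 8.92% of all genes: Psmb8, Psmb9, Psmb10, Tap1, H2-Q6, H2-Q7, H2-T22, H2-T23 and H2-M3. Psmb8 was at 369 and 194 CPM. The type I interferon list (Ifit1, Ifit3, Isg15, Rsad2 and Oasl2) was higher in the same cells, at 242 and 447 CPM.

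**Figure D3:**
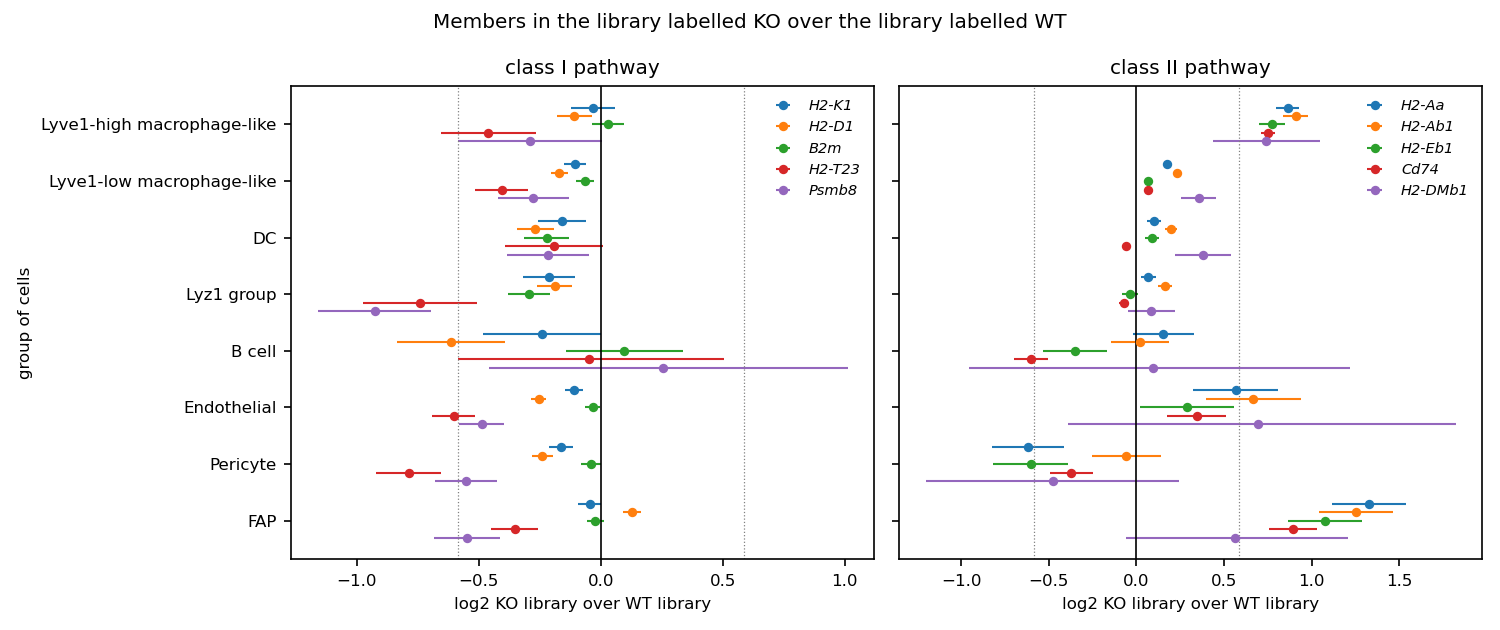
Log2 ratio of KO over WT (x axis) for 5 class I and 5 class II pathway genes in 8 groups of cells (y axis), with 95% counting intervals and dotted lines at 1.5-fold. The class II genes of Lyve1-high macrophage-like cells lie at 0.74 to 0.91, and H2-T23 is below 0 in all 8 groups, with intervals that include 0 in DC-like and B cell-like cells.

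Classical class I differed by less than 1.5-fold in FAP-like, endothelial-like, macrophage-like and pericyte-like cells. The sum of H2-K1 and H2-D1 had ratios of 0.06 (0.04 to 0.09) in FAP-like, -0.19 (-0.22 to -0.17) in endothelial-like, -0.13 (-0.15 to -0.10) in macrophage-like and -0.21 in pericyte-like cells. B2m lay between -0.04 and -0.02 in these 4. By level, pericyte-like cells had class I at 3328 and 2885 CPM. Smooth muscle-like cells, which scored 3.89 for pericyte markers, had class I at 870 and 845 CPM. H2-T23 was at 370 and 243 CPM in endothelial-like cells (-0.60), 261 and 151 in pericyte-like cells (-0.79) and 129 and 101 in FAP-like cells (-0.35). H2-T22 was at 143 and 94.2 CPM in endothelial-like and 128 and 76.3 CPM in pericyte-like cells. Psmb8 was at 305 and 218 CPM in endothelial-like cells (-0.49), 255 and 174 in pericyte-like cells (-0.55) and 68.9 and 47.1 in FAP-like cells (-0.55). T cell-like cells had H2-T23 at 395 and 382 CPM and Psmb8 at 379 and 406.

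The type I interferon list was lower in KO in the same cells, at 1970 and 966 CPM in endothelial-like, 2017 and 1018 in pericyte-like, 743.5 and 379 in FAP-like and 360 and 217 in macrophage-like cells. In endothelial-like cells 4 of its 5 genes were past the fold downward and 0 upward, beside 3.85% and 4.2% of all genes. Irf1 was at 624 and 830 CPM in endothelial-like cells. The part of interferon in the lower H2-T23 and Psmb8 was not tested. H2-Q4 went against these genes, at 102 and 170 CPM in FAP-like cells (0.74) and 403 and 511 in endothelial-like cells (0.35).

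Of 23 members in endothelial-like cells, 1 was past the fold upward (H2-Ab1) and 3 downward (H2-T23, H2-T22 and H2-DMa), beside 4.2% and 3.85% of all genes. In pericyte-like cells, 0 of 23 were past it upward and 4 downward (H2-T23, H2-T22, H2-Aa and H2-Eb1), beside 6.12% and 3.72%. In FAP-like cells 6 of 24 were past it upward (H2-Aa, H2-Ab1, H2-Eb1, Cd74, H2-DMa and H2-Q4) and 1 downward (H2-Q10), beside 3.73% and 6.58%. The count in either direction, 7, was 2 with means over cells and 4 at 2-fold. The median ratio of the members was -0.05 in FAP-like and -0.11 in endothelial-like cells, and that of all genes tested was -0.06 and 0.04.

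In several cell types other than leukocytes, a large share of the class II UMIs was in few cells. In FAP-like cells of KO, 1 cell held 647 of the 2377 class II UMIs (27.2%) and 15 of 2160 cells held 70.4%. In WT, 11 of 1688 cells held 47.9% of 721. Endothelial-like cells had 652 and 886 class II UMIs, of which 4 cells in each library held 62.6% and 54.6%. In pericyte-like cells 5 and 6 cells held 92.4% and 85.2%. In Schwann-like and smooth muscle-like cells of WT, 0 cells had 10 or more class II UMIs. Among lymphocytes, 1 NK cell-like cell held 572 of the 731 UMIs in KO and 1 T cell-like cell held 312 of 366.

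Cells with any UMI of 10 leukocyte genes (Ptprc, Tyrobp, Fcer1g, Laptm5, Coro1a, Cd52, Lyz2 and the 3 C1q chains) were then left out, a step chosen after the data had been seen. Class II was 26.9 and 33.9 CPM in the remaining 1213 and 1477 FAP-like cells, against 55.3 and 129 in all, and the ratio went from 1.22 (1.10 to 1.34) to 0.34 (0.10 to 0.57). It was 31.7 and 48.9 CPM in the remaining endothelial-like cells, with a ratio of 0.62 (0.33 to 0.92), against 0.51 (0.36 to 0.66) in all. In pericyte-like cells it dropped from 284 and 213 CPM to 23.4 and 27.4, and the ratio from -0.41 to 0.23 (-0.24 to 0.71). Tenocyte-like cells went from 1.10 to 0.93 (0.39 to 1.48), a value past 1.5-fold whose interval reached below it (log2, 0.585). It rests on few UMIs, 50 and 72 in the remaining tenocyte-like cells, at 14.6 and 27.8 CPM. Schwann-like cells went from 2.28 to 0.82 (-0.07 to 1.73). Class I in the remaining cells was at 4070 and 3508 CPM in endothelial-like and 1202 and 1263 in FAP-like cells, close to the levels in all. Its ratio moved more in smaller groups, from -0.04 to -0.60 (-0.86 to -0.34) in smooth muscle-like, from -0.45 to 0.00 (-0.17 to 0.17) in lymphatic endothelial-like and from 0.11 to -0.20 (-0.38 to -0.02) in Schwann-like cells. At 1000 UMIs per cell, 5.13% and 5.25% of FAP-like cells had a class II UMI and 2.68% and 2.60% a UMI of C1q, a macrophage gene. The part of free RNA in these class II UMIs was not tested. For endothelial-like cells, the values were 4.77% and 7.24% for class II and 43 of 1196 and 49 of 1188 cells for C1q. By level, C1q was also higher in KO, at 24.2 and 43.9 CPM (0.86) in all endothelial-like cells. In all FAP-like cells C1q was at 19.6 and 30.5 CPM (0.64). Median depths were 7481 and 8286 UMIs in FAP-like, 4460 and 4165 in endothelial-like and 5326 and 5346 in macrophage-like cells, and the unthinned class II shares were 19.8% and 26.1% in FAP-like and 17.4% and 25.8% in endothelial-like cells.

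**Figure D4:**
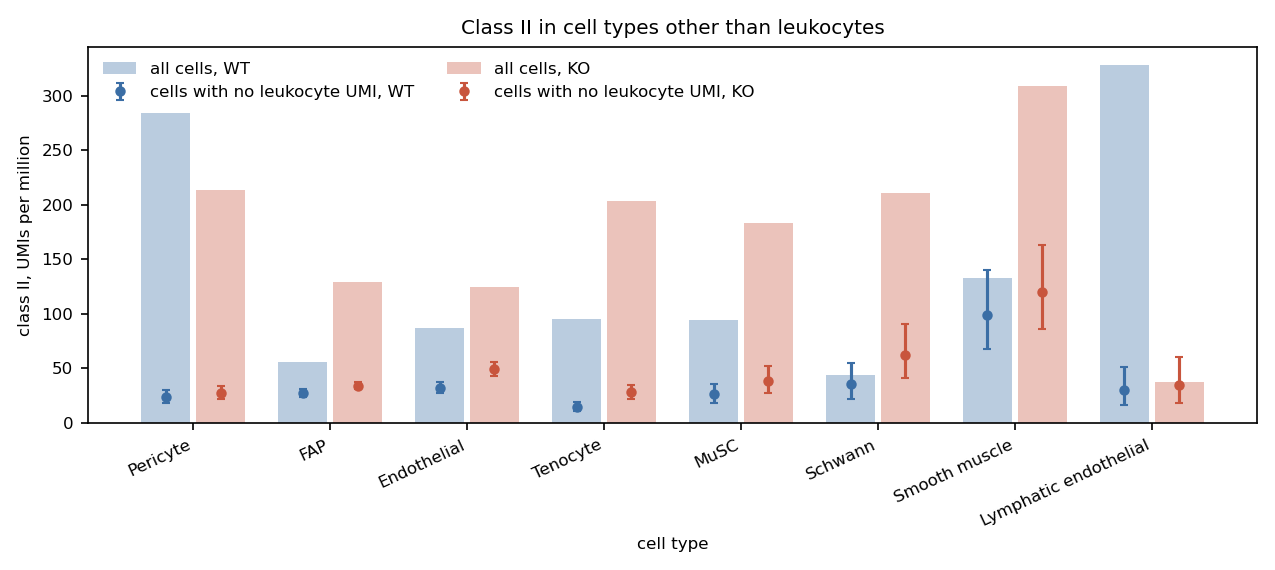
Class II level (y axis, CPM) in 8 groups of cells other than leukocytes, in all cells (bars) and in cells with no UMI of 10 leukocyte genes (points, with 95% Poisson intervals), by library. Without leukocyte UMIs the levels lie between 14.6 and 120 CPM in both libraries.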

How the data were processed

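The authors prepared the libraries with a 10x Genomics 5′ kit, counted reads with Cell Ranger (2.1.1 per the submitters' processing notes, which name mm10 and differ in version from the study's methods), built the matrix in Seurat and removed doublets with DoubletFinder and cells rich in mitochondrial RNA. The deposited values are the natural log of 1 plus UMIs per 10000 UMIs of the cell. The log was undone and whole UMI counts were returned within 0.256 UMI, and in simulated data for 500 of 500 cells. Cells with fewer than 1000 UMIs (686 WT, 633 KO) stayed in.

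Cells were clustered in Seurat 5.3.0 (R 4.3.3) without the 35 genes: 2000 variable genes, 30 principal components, a rewritten Harmony across libraries, 20 neighbors, resolution 0.8 and seed 1. Clusters were named by marker lists, and rules for clusters with markers of 2 lineages were added after clusters had been seen. UMIs were summed per group and library (scipy 1.17.1). Likeness used log2(CPM + 10). Named genes were the members listed in the rule, H2- genes of 50 CPM or more in any named type, and members past 1.5-fold. Lyve1, Timd4, Cd163, Folr2, F13a1 and Ccr2 were added after values were seen. Alternatives were other clusterings, depth limits, thinning, means over cells and Scrublet (scanpy 1.11.5). The members and lists were chosen with earlier results of these data known.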

Additional observations from a re-analysis of the deposited data

How the results depend on the processing

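No paired analysis was possible because each genotype has 1 library and no test was run, and no replicate could be left out for the same reason. Of 95 alternative values, 55 stayed within counting error (within 1.5 times for counts) and 40 moved, none with a change of direction. With the mean over cells, the class I ratio was 0.17 in FAP-like, -0.14 in endothelial-like and -0.10 in macrophage-like cells, and class II was 0.26 in macrophage-like, 0.17 in FAP-like and 0.72 in Lyve1-high cells. With cells thinned to 1000 UMIs, class I was 0.11 in FAP-like and -0.16 in endothelial-like cells, and class II 0.28 in macrophage-like and 0.26 in FAP-like cells. At resolution 1.2 class II was 0.19 in macrophage-like and 0.79 in Lyve1-high cells. With the members kept for clustering it was 0.20, 0.11, 0.88 and 0.67 in macrophage-like, DC-like, FAP-like and Lyve1-high cells. Without integration it was 1.001 in FAP-like and 0.67 in Lyve1-high cells. With Scrublet calls left out it was 0.10 in DC-like, 0.21 in endothelial-like and 0.33 in FAP-like cells. Chosen after seeing the data, leaving out cells with a leukocyte UMI gave 0.34 in FAP-like cells, and macrophage-like cells with 2 or more UMIs of Lyve1, Folr2 and Cd163 gave 0.60. Members past the fold at 2-fold were 4 in FAP-like, 0 in endothelial-like, 0 in macrophage-like and 1 in DC-like cells; with means over cells 2 in FAP-like and 1 in macrophage-like cells; with 200 UMIs or more 0 in macrophage-like and 1 in DC-like cells; and with 20 or more 4 in DC-like cells. Shares with a class II UMI, unthinned and thinned to 2000 UMIs, were 86.2% and 85.1% (WT) and 93.7% and 93.6% (KO) of macrophage-like cells, and 17.4% and 7.66% (WT) and 25.8% and 13.3% (KO) of endothelial-like cells. The cause of these shifts was not tested. At resolution 1.2 the macrophage-like cells took in a cluster led by Lyz1 and Retnla (111 and 141 cells). With the members kept they also took in such a cluster (112 and 144 cells). At resolution 0.4 neither the Lyve1-high group nor DC-like cells came out as a separate group.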
